A study of Homo sapiens with 6 samples.

Results

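The 45 genes described here encode chaperones and protein folding enzymes, and they are 45 of the 20046 protein-coding genes in the RefSeq gene table of build GRCh38.p14. They were listed by name from their textbook roles, with earlier results of these data known. They fall into 21 cytosolic proteins, 5 mitochondrial proteins, 11 proteins of the endoplasmic reticulum (ER) and 8 subunits of the cytosolic chaperonin TRiC. Peaks of N1-methylguanosine (m1G) were assigned to a gene by position, where they lay inside its span. RNA came from PANC-1, an established cell line grown from a human pancreatic ductal adenocarcinoma.

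The cells carried siRNA against TRMT5 for 4 days (TRMT5 KD) or a control transfection (titled WT control). TRMT5 is the enzyme that methylates tRNA next to the anticodon. In both groups polyA+ RNA was broken into short fragments and part of it was precipitated with an antibody against m1G. The TRMT5 KD group had 2 m1G precipitates and 1 input library, and the control group likewise had 2 precipitates and 1 input library. Whether precipitates of a group came from separate cultures is not stated, and an antibody against GFP that the protocol names has no library analysed here. The deposited values are 2 peak lists for the series as a whole, and no peak in them names a group, so the effect of TRMT5 KD on these genes was not analysed here.

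Chaperones bind unfolded or partly folded proteins and let go of them in cycles, most of them driven by ATP. HSP70 proteins receive their clients from J-domain proteins and can pass them to HSP90 or to the chaperonins, which enclose a client in a chamber. In the ER, lectin chaperones hold glycoproteins while disulfide isomerases form and rearrange disulfide bonds. The m1G base carries a methyl group on its pairing edge, so a base modified in this way cannot pair normally.

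Both lists give the authors' own value for each peak. The MeTDiff list has a fold enrichment of precipitate over input for each of 18431 peaks, which ran from 1.03 to 73.9 with a median of 4.24, and a false discovery rate (FDR) of at most 0.0501. Each MeTDiff peak has a strand and consists of 1 or more blocks with a median of 150 bp covered. The MACS2 list has 6264 summits of 1 bp without a strand, with a score that is −log10 of a p-value or a q-value and a median of 16.4. The lists hold no read counts, so depth is unknown and values come without a replicate error. Of 7 epithelial or PANC-1 marker genes 6 had a MeTDiff peak, among them KRT8, KRT18, KRT19 and VIM, while KRT7 had none. Of 8 markers of other pancreas cells, COL1A1 and CD68 had a MeTDiff peak.

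Of the 45 chaperone genes, 36 (80.0%, 95% Wilson interval 66.2 to 89.1) held a MeTDiff peak wholly inside their span, against 37.2% of all protein-coding genes. With peaks that overlapped the span by any length, the count was 39 (86.7%, interval 73.8 to 93.7), against 38% of protein-coding genes. A MACS2 summit lay inside the span of 27 members (60.0%, interval 45.5 to 73.0), against 18% of protein-coding genes. All 27 of these also had a MeTDiff peak overlapping the span, so 60.0% of the members had both, against 17% of protein-coding genes. The median span was 17370 bp for the members and 24103 bp for protein-coding genes. Expression level was not measured in these lists. The parts of expression and of gene or transcript length in these shares were not tested. Intervals cover counting error only, and genes are not replicates of a condition.

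Between them the members held 79 MeTDiff peaks inside their spans and 84 that overlapped them, and 47 summits. Another 6 summits lay up to 1000 bp outside a span. The median fold was 4.64 for peaks inside the spans, from 1.14 to 31.1, beside 4.24 in the whole list. The share of overlapping peaks with a fold of 10 or more was 14.3% (12 peaks), beside 12.7% of the whole list. The share under 2-fold was 15.5% (13 peaks), beside 9.25% of the whole list. The median score of the summits was 23.6, beside 16.4 in the whole list. Peaks stood in a larger share of these genes than of protein-coding genes at large, while the median fold was close to that of the whole list and low folds made up a larger share. Over the 28 members that had a MeTDiff peak and a summit within 1000 bp, Spearman's rho between the largest fold and the highest score was 0.197, so a member high in one list need not be high in the other. This is a description across genes from the same libraries.

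**Figure D1:**
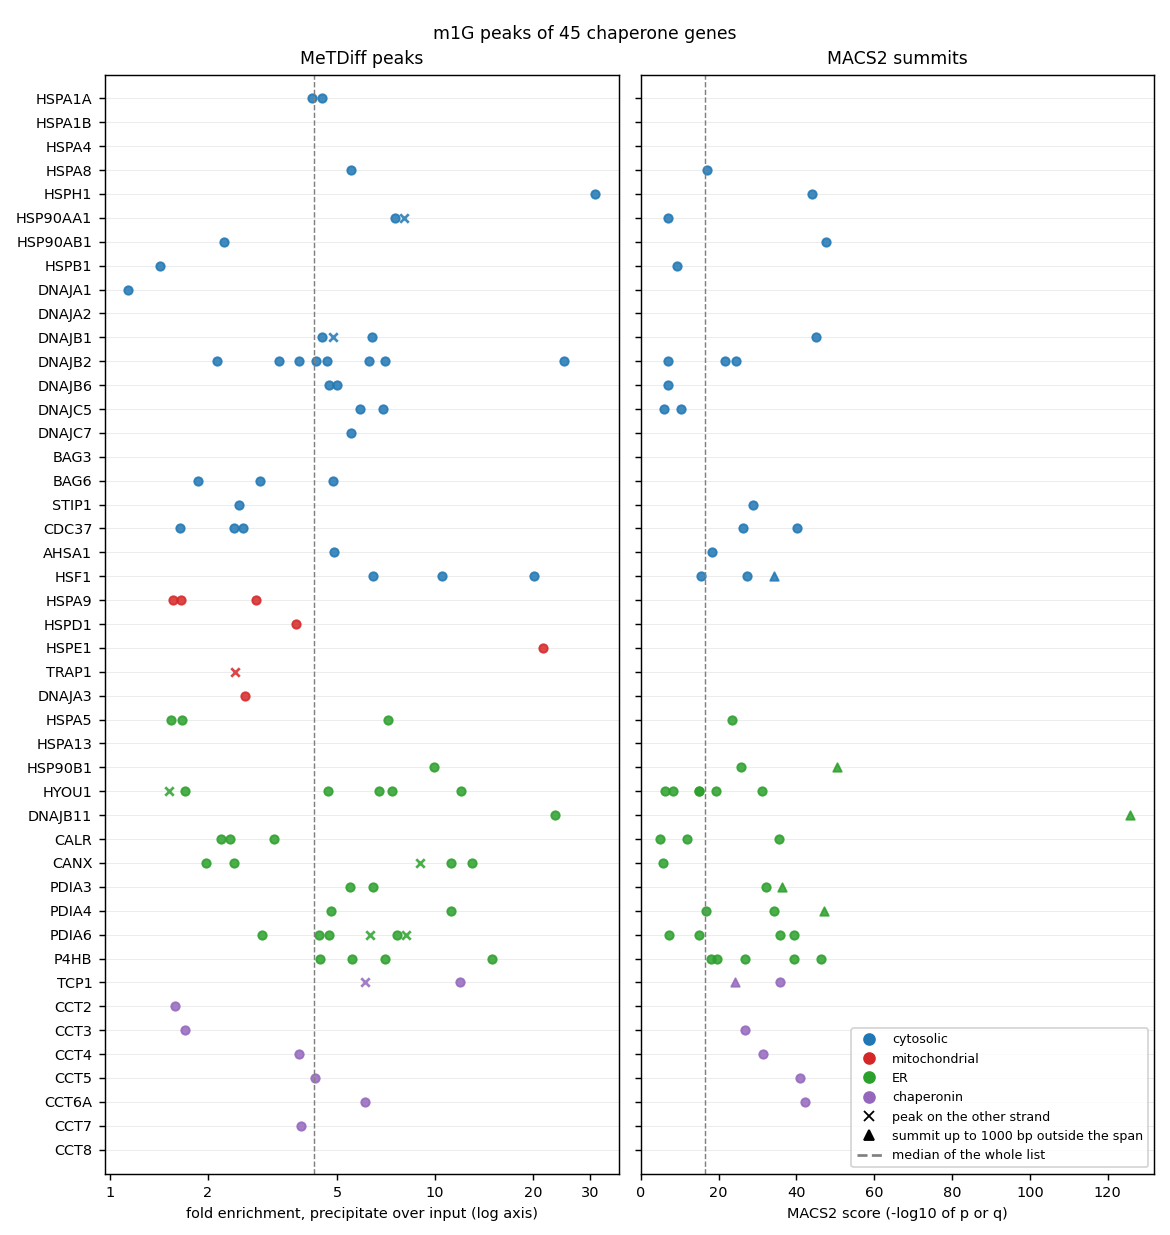
Each point is a MeTDiff peak (left, fold enrichment on a log axis) or a MACS2 summit (right, −log10 of p or q) of a chaperone gene, coloured by compartment, with crosses for peaks on the other strand and triangles for summits up to 1000 bp outside the span. The highest fold is that of HSPH1 at 31.1 and the highest score that of DNAJB11 at 125.7, and the mitochondrial genes have no summit.

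Several of the strongest peaks lay at the starts of members, so the DNA around them is shown here for 6 of the genes whose summit lay within 50 bp of a start. Each line runs 5′ to 3′ along the gene from 70 bases before the first base of a RefSeq transcript to 30 bases from it, from RefSeq, build GRCh38.p14. Capitals mark the summit base with 2 bases on each side.
DNAJB11 chr3:186570650-186570749 plus strand: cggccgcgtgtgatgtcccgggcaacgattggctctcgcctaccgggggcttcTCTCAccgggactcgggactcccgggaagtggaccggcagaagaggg
HSP90B1 chr12:103930340-103930439 plus strand: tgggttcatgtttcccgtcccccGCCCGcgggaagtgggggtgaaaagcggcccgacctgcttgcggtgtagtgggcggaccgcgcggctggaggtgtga
PDIA4 chr7:149028461-149028560 minus strand: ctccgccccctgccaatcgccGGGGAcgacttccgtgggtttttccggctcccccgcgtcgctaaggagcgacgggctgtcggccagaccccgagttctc
HSPA5 chr9:125241314-125241413 minus strand: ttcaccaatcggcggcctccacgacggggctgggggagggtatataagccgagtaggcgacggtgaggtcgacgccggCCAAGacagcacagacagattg
P4HB chr17:81860506-81860605 minus strand: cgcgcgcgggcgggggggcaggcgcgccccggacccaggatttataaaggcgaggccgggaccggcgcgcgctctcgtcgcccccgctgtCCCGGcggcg
DNAJB1 chr19:14518368-14518467 minus strand: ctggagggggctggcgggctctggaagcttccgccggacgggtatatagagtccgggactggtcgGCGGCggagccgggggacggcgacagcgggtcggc

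The summit of DNAJB11 lay 15 bp before its start, that of HSP90B1 45 bp before and that of PDIA4 47 bp before. For DNAJB1 it lay 3 bp before an inner start, for HSPA5 10 bp after the start and for P4HB 22 bp after. A summit before the annotated start lies in DNA that the RefSeq transcript does not cover. The first 50 bases of the transcripts held 36.5% G in the 16 members with a MeTDiff peak of their own near a start, 34.6% in the 26 other members and 31.3% over all start windows. These shares come from 25, 34 and 35116 windows, since a gene can have several starts.

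Starts could be placed for 42 members. A MeTDiff peak had its midpoint within 500 bp of a RefSeq start in 18 of these 42 members. Over protein-coding genes with a placed start this held for 2858 of 15842 (18%), a smaller share. In 2 of the 18, HSPD1 and DNAJA1, that peak was on the other strand. A summit lay within 500 bp of a start in 12 of the 42, against 1855 of 15842 protein-coding genes (11.7%). One or the other was found in 20 of the 42, against 3390 of 15842 protein-coding genes. By share, the ER group was the highest of the 4 groups, though the groups are small and the difference was not tested. Of its 10 genes with a placed start, 7 had a MeTDiff peak there, 6 a summit and 8 either. Among 20 cytosolic genes the numbers were 7, 4 and 7, among 5 mitochondrial genes 3, 0 and 3, where HSPD1 and HSPE1 were counted for the same peak, and among 7 chaperonin genes 1, 2 and 2.

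**Figure D2:**
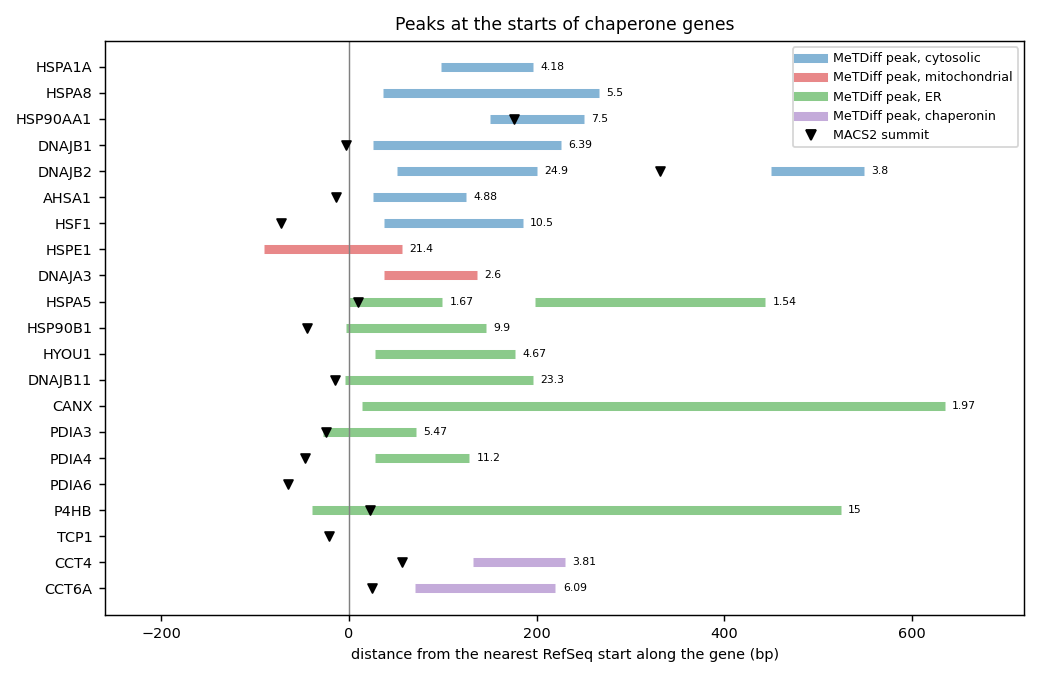
Bars show MeTDiff peaks on the member's own strand and triangles MACS2 summits of chaperone genes near a start. They are placed by their distance in bp from the nearest RefSeq start along the gene (or the span's end for HSF1, PDIA3 and CCT6A), with the fold printed beside each bar. Summits cluster around the start itself, and most bars begin after it. A shorter stretch is shown before the start than after it, which leaves out the 4.50-fold peak of DNAJB1 at −424 bp.

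By place in the span, 20 of the 84 overlapping peaks (23.8%, interval 16.0 to 33.9) had their midpoint within 500 bp of the 5′ end, and they belonged to 17 members. Their median fold was 5.79, from 1.54 to 24.9. Another 9 peaks of 8 members lay within 500 bp of the 3′ end, with a median of 2.56 and a range of 1.52 to 20.1. The other 55 peaks, in 29 members, had a median of 4.64. Over all protein-coding spans the medians were 5.25 at the 5′ end (2240 peaks), 3.70 at the 3′ end (1041 peaks) and 4.00 between (12554 peaks). Those values are for peaks wholly inside a span, and for such peaks the members' median at the 5′ end was 4.88 (15 peaks), below the 5.25 of all spans. The 5 member peaks that reach past the start, of 5.47 to 23.3-fold, account for the difference from 5.79. In either count the order of the 3 medians was the same in the chaperone genes and in all protein-coding genes. Of the 12 overlapping member peaks of 10-fold or more, 6 lay at the 5′ end, and those of DNAJB11, HSPE1 and P4HB reach outside the span. The same share over all protein-coding spans was not computed, so it is not known whether this count sets the members apart. Counting only peaks wholly inside a span, 15 of 79 (19.0%, interval 11.9 to 29.0) were at the 5′ end, against 14.2% over all spans, and 9 of 79 (11.4%, interval 6.11 to 20.2) at the 3′ end, against 6.58%. Both intervals include the value for all spans.

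In the ER, 10 of 11 genes had an overlapping MeTDiff peak and 9 had a summit inside the span (81.8%, interval 52.3 to 94.9). They held 33 overlapping peaks with a median fold of 5.53 and 24 summits with a median score of 19.4. HSPA13, an HSP70-like ATPase of microsomes, was the one without either.

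DNAJB11, the J-domain partner of HSPA5 in the ER, had the highest score of the whole MACS2 list. Its MeTDiff peak at chr3:186570716-186570916 had a fold of 23.3, number 284 of 18431. The summit at position 186570705 scored 125.7, number 1 of 6264, and lay 11 bp before the MeTDiff peak. Since both began before the annotated start, at position 186570720, a count limited to the span leaves DNAJB11 without a summit and without a whole peak. The gene TBCCD1 runs the opposite way from a start 162 bp from this summit. A MACS2 summit has no strand, and the MeTDiff peak beside it is on the strand of DNAJB11.

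HSP90B1, the HSP90 of the ER, had a similar arrangement. Its MeTDiff peak at chr12:103930407-103930556 had a fold of 9.9, and its summits scored 50.5 before the start and 25.7 at 1016 bp into the gene. The first of these lay 60 bp from MIR3652 and 154 bp from the pseudogene TTC41P, so without a strand it cannot be given to HSP90B1 alone. HSPA5, the ER HSP70 that also restrains the sensors of the unfolded protein response, had folds of 1.67 and 1.54 near its start and 7.17 towards its 3′ end. Its summit near the start scored 23.6. The 3 MeTDiff peaks of HSPA5 share 1 deposited FDR of 6.3e-12, the smallest of any member, so this FDR does not separate a 7.17-fold peak from a 1.54-fold peak. HYOU1, an ER chaperone of the HSP110 type, had 5 MeTDiff peaks on its own strand with folds of 4.67 at the start, then 12.0, 6.70, 7.35 and, near the 3′ end, 1.70. A peak of 1.52-fold on the other strand lay in the span of HYOU1-AS1. The 6 summits of HYOU1 scored between 6.22 and 31.2.

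All 4 disulfide isomerases had peaks in both lists, 14 MeTDiff peaks and 12 summits inside their spans. P4HB, the prototype of the family, had folds of 15 at the start, then 7.0, 4.41 and 5.53 towards the 3′ end, and 5 summits with scores from 18.2 to 46.5. PDIA4 had a fold of 11.2 at the start and 4.79 near the far end, with scores of 47.0 before the start and 34.3 and 16.8 inside. PDIA3, which works with the lectin chaperones, had folds of 5.47 at the start and 6.45 further in, and scores of 36.3 and 32.2. The summit of 36.3 lay 24 bp before the span and 116 bp from the pseudogene CATSPER2P1. PDIA6 had 4 peaks on its own strand, of 7.61, 4.72, 4.38 and 2.94-fold, all with a deposited FDR of 6.2e-06. Its other 2 peaks, of 8.16 and 6.30-fold, were on the other strand in the span of ATP6V1C2, which overlaps the 3′ part of PDIA6, and the highest summit of PDIA6, with a score of 39.3, lay beside them and within the stretch of the 7.61-fold peak.

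The overlapping peaks of the 2 ER lectins had a median fold of 2.795, beside 5.915 in the disulfide isomerases, though CANX also had high folds. CALR, which binds glycoproteins in the ER lumen, had 3 peaks of 2.2, 2.34 and 3.19-fold with scores of 35.6, 11.8 and 5.00. CANX, its membrane-bound relative, had 1.97, 2.40 and 11.2-fold on peaks of its own ID, the last near the 3′ end. At the far 5′ end of the CANX span stood a peak of 13-fold with another ID on the same strand and one of 9.0-fold on the other strand, with a summit of 5.69 beside them. The midpoint of the first lies at −19196.5 bp from the nearest inner start of CANX, and both cannot be assigned to it by position alone.

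Of the 10 ER genes with a start window, 5 held a match to the ER stress element and HYOU1 held its second form. These windows, of 250 bases before to 50 bases after each RefSeq start, were searched on both strands for the element, whose letters were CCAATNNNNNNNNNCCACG, and for its second form, ATTGG and CCACG with any 1 base between them. The first was found in 27 of 35116 windows (0.0769%) and in 25 of 27305 genes. Of these, 5 were members and all 5 were ER genes. The second was found in 19 windows (0.0541%), among them that of HYOU1, which held it at 2 places. The matches are shown for the ER genes, with the fixed letters in capitals, so that the letters between can be compared.
HSPA5: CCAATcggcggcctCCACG
HSP90B1 (farther): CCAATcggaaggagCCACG
HSP90B1 (nearer, other strand): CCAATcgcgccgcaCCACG
PDIA6: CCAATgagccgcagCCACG
CALR (other strand): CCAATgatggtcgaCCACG
CANX: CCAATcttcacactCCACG
HYOU1 (other strand, both places): ATTGGaCCACG

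In HSPA5 the match ran from 66 to 48 bases before the start, within the stretch printed above. In HSP90B1 the nearer one ran from 89 to 71 bases before the start, and in PDIA6 from 86 to 68 bases before an inner start. The match of CANX spanned an inner start. Of these 6 genes, HSPA5, HSP90B1, HYOU1 and CANX had a MeTDiff peak near a start, PDIA6 had only a summit there and CALR had neither. DNAJB11, P4HB and PDIA4, which had the largest folds at starts among the ER genes, held no match. The heat shock element, searched as GAANNTTCNNGAA or TTCNNGAANNTTC, was found in 172 windows (0.490%), and in 6 members, namely DNAJA1, DNAJB6, HSP90AA1, HSP90AB1, HSPA8 and HSPD1. None of the 10 ER genes with a window held it, which at so low a rate is no contrast with the other groups. A match describes letters and does not show that a factor binds.

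In the cytosol, 17 of 21 genes had a MeTDiff peak and 13 a summit (61.9%, interval 40.9 to 79.2). Their 36 peaks had a median fold of 4.79 and their 18 summits a median score of 19.97. Of the HSP70 and HSP110 genes 3 of 5 had a peak. HSPH1, an HSP110 protein that exchanges the nucleotide of HSP70, had the highest fold of all members, 31.1 at chr13:31161535-31161988, number 117 of 18431. Its summit at position 31161741 scored 44.1 and lay inside a block of that peak. The peak's midpoint was 626.5 bp from the start, which is just beyond the 500 bp used for starts.

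HSPA8, the constitutive HSP70, had a fold of 5.5 near its inner start and a summit of 17.1 at a distance of 1932 bp, so the lists marked different places. HSPA1A, a stress-induced HSP70, had folds of 4.18 and 4.50 and no summit. Its near-identical neighbour HSPA1B had no peak in either list, and neither had HSPA4, another HSP110 protein. How reads matching both HSPA1A and HSPA1B were treated is not given in the sources used here, so the difference between the pair is uncertain. The same holds for genes with processed pseudogenes elsewhere in the genome, among them HSPA8, HSP90AA1, HSPD1 and HSPE1.

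Of the HSP90 genes, HSP90AB1, the constitutive form, had a summit of 47.7, the highest score inside a span of any member. The MeTDiff peak 27 bp from it had a fold of 2.25. HSP90AA1, the stress-induced form, had a fold of 7.5 on its own strand and of 8.0 on the other, where WDR20 overlaps it, and a summit of 7.07 inside both. The midpoints of both peaks lay at most 200 bp from the far 5′ end of the HSP90AA1 span of 59008 bp. Near the inner start of HSP90AA1, at position 102087044, no peak was listed. The summit of 7.07 has no strand, so it cannot be given to HSP90AA1 alone. With this limit, HSP90AA1 was higher by listed fold and HSP90AB1 by listed score. HSPB1, a small heat shock protein that holds unfolded clients without ATP, had a fold of 1.43 and a score of 9.44.

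The J-domain proteins bring clients to HSP70 and start its ATP cycle, and 6 of 7 of their genes had a peak. DNAJB2, which directs clients towards ubiquitination, had 8 MeTDiff peaks, more than any other member, in a span of 7530 bp. The first, 125.5 bp from the start, had a fold of 24.9, number 242 of the list. The next 7 along the gene had folds of 3.8, 7.0, 3.31, 6.25, 4.3, 2.14 and 4.64, and 3 summits scored 21.7, 7.07 and 24.5. By fold the peak at the start of DNAJB2 was the highest, while its highest score lay 503 bp from its 3′ end. DNAJB1, the main partner of the stress-induced HSP70, had a summit of 45.1 at an inner start, with a fold of 6.39 there and 4.50 at 30696 bp into the span. A 4.86-fold peak on the other strand lay at the second place, in the span of TECR.

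DNAJB6, which holds back aggregation, had folds of 5.0 and 4.73 and a score of 6.98. DNAJC5, the J-domain protein of synaptic vesicles, had folds of 6.92 and 5.88 and scores of 5.92 and 10.4. DNAJC7 had a fold of 5.5 and no summit. DNAJA1, with a fold of 1.14, had the lowest value of any member, and DNAJA2 had no peak. Within the J-domain family the values therefore spanned nearly the whole range of the members.

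Of the 5 co-chaperones, 4 had a peak, with a median fold of 2.53. CDC37, which loads protein kinases onto HSP90, had folds of 2.56, 1.64 and 2.41 and scores of 26.3 and 40.2. STIP1, which bridges HSP70 and HSP90, had a fold of 2.49 and a score of 28.9. AHSA1, which speeds the ATP cycle of HSP90, had a fold of 4.88 and a score of 18.2 at an inner start. BAG6, which sorts hydrophobic proteins released from ribosomes, had folds of 1.87, 2.89 and 4.84 and no summit. BAG3, which hands clients of HSP70 to autophagy, had no peak. All 3 co-chaperones with a summit had folds of 4.88 or less, beside scores above the median of 16.4 in the list.

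HSF1, the transcription factor that induces heat shock genes, had folds of 10.5 near its start, 6.44 in the interior and 20.1 at 322.5 bp from its 3′ end. The last of these was number 436 of the MeTDiff list and the largest fold at the 3′ end of any member. Its summits scored 34.3, 15.4 and 27.3 along the gene. The first lay 73 bp outside the span and 93 bp from the neighbouring gene BOP1, so a score without strand cannot be given to one of them.

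All 5 mitochondrial genes had a MeTDiff peak overlapping the span, and 4 had one wholly inside. None had a summit, also within 1000 bp, and 0 of 5 genes has an upper limit of 43.5% (Wilson). That interval includes the 18% of all protein-coding genes with a summit, so 5 genes do not set this group apart. Their 6 peaks inside the spans had a median fold of 2.52, from 1.56 to 3.72. HSPA9, the mitochondrial HSP70, had folds of 2.82, 1.65 and 1.56. HSPD1, the mitochondrial chaperonin, had a fold of 3.72. DNAJA3, a mitochondrial J-domain protein, had 2.60 at its start, and TRAP1, the mitochondrial HSP90, had 2.43 at its 3′ end. That last peak was on the other strand, in the span of DNASE1, so TRAP1 had no peak on its own strand.

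HSPE1, the lid of the HSPD1 chamber, differed from these. Its peak at chr2:197500288-197500435 had a fold of 21.4, number 370 of the list, and covered the start of the gene, with 91 bp before it. HSPE1 and HSPD1 start head to head, and the space between their spans, from 197500274 to 197500379, lay mostly under this peak. The strand in the list is that of HSPE1. The gene HSPE1-MOB4 overlaps the span of HSPE1, and the peak was not assigned between them. No summit lay within 1000 bp of either gene, so this peak was in 1 list alone.

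Of the 8 TRiC subunits, which together fold actin and tubulin, 7 had a MeTDiff peak and 5 had a summit. Each of the 7 had 1 peak on its own strand, and TCP1 had a further one on the other. CCT8 had none. Folds on their own strand were 11.9 for TCP1, 6.09 for CCT6A, 4.27 for CCT5, 3.87 for CCT7, 3.81 for CCT4, 1.70 for CCT3 and 1.58 for CCT2. Scores inside the spans were 42.2 for CCT6A, 40.8 for CCT5, 35.7 for TCP1, 31.4 for CCT4 and 26.8 for CCT3. All 5 scores were above the median of 23.6 of the member summits, while 4 of the 5 folds beside them were under 10 and that of CCT3 was 1.70.

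The place of the peak differed among the subunits. In CCT4 and CCT6A the peak's midpoint and the summit lay within 200 bp of the start, in CCT5 both lay in the middle of the gene, and in TCP1 and CCT3 in its 3′ part. Of the subunits without a summit, CCT7 had its peak in the interior and CCT2 had it 639.5 bp from an inner start. The TCP1 summit of 35.7 lay inside its 11.9-fold peak at chr6:159779928-159780128. The other-strand peak of TCP1, 6.08-fold, was in the span of ACAT2. A further summit of 24.2 lay 21 bp before the start of TCP1 and 189 bp from the gene MRPL18, which runs the other way.

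**Figure D3:**
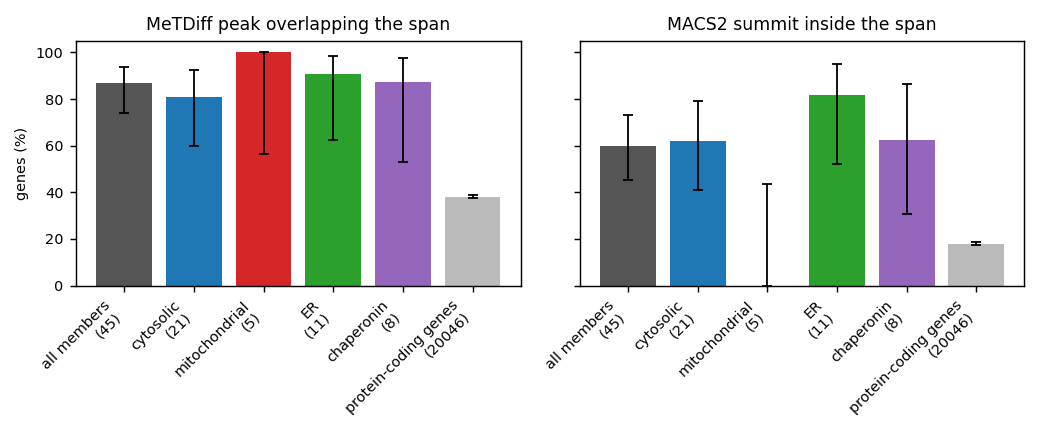
Bars give the percent of genes with an overlapping MeTDiff peak (left) or with a MACS2 summit inside the span (right), for the 45 chaperone genes, their 4 groups and 20046 protein-coding genes, with gene numbers under the bars and 95% Wilson intervals. The mitochondrial group has 5 of 5 genes on the left and 0 of 5 on the right.

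Overlap with other genes limits what can be assigned. Of the 45 spans, 24 overlapped another gene, and 18 did with small RNA genes left aside. Of the 84 overlapping peaks, 8 were on the other strand and 9 had another ID than the member's own. Among the members left after taking out those 24, 15 had a MeTDiff peak inside the span and 10 had a summit. These counts are out of fewer genes, and the matching shares of protein-coding genes that overlap no other gene were not computed.

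The lists often marked places close to each other that did not coincide. Of the 47 member summits inside spans, 11 (23.4%, interval 13.6 to 37.2) lay inside a block of a MeTDiff peak, against 37.9% of the 5667 summits in protein-coding spans. Another 10 lay in a gap between blocks, which for a spliced peak can be an intron. With the blocks moved 100 bp towards the 5′ end, an alternative chosen after seeing the data, 33 (70.2%, interval 56.0 to 81.3) lay inside a block, against 68.7% over all spans. Moved 100 bp the other way, 7 (14.9%) did, against 17.0%.

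For single-block MeTDiff peaks with a summit within 300 bp, the nearest summit lay on the 5′ side of the peak's midpoint in 27 of 31 member peaks (87.1%, interval 71.2 to 94.9). Over the whole list this held for 2921 of 3492 (83.7%, interval 82.4 to 84.8). The median distance was −105.5 bp for members and −96.0 bp over all, with negative values on the 5′ side. It was −93.2 bp for plus-strand and −99.0 bp for minus-strand peaks, so it follows the strand. The members share this offset with the whole list. At the starts shown above, the summits of DNAJB11, HSP90B1, PDIA4 and DNAJB1 lay on the 5′ side of the MeTDiff peak beside them, while those of HSPA5 and P4HB lay inside a block. Which of the lists marks the precipitated base more closely was not tested.

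**Figure D4:**
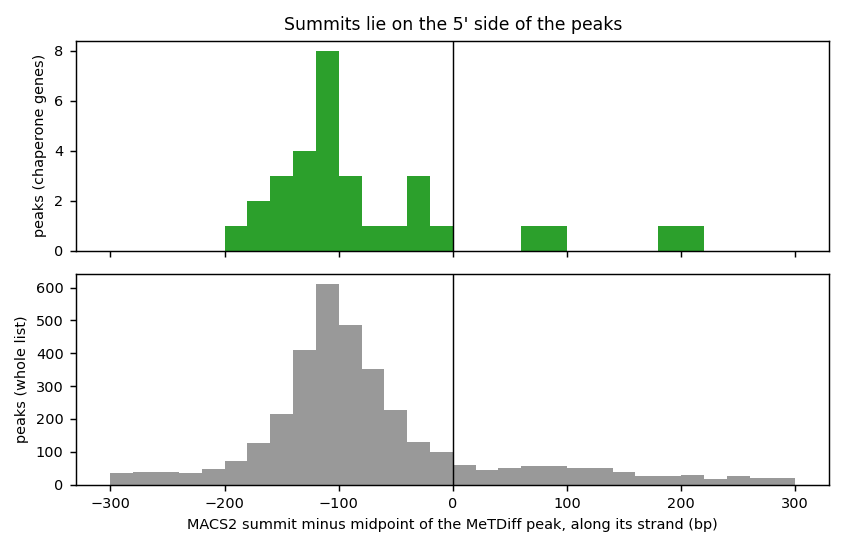
Histograms of the distance in bp from the midpoint of a single-block MeTDiff peak to the nearest summit within 300 bp, along the peak's strand, for 31 peaks of chaperone genes (top) and 3492 of the whole list (bottom). Both have most peaks left of 0, with medians of −105.5 and −96.0 bp.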

How the data were processed

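The m1G antibody precipitates and inputs of TRMT5 KD and control PANC-1 cells were processed by the authors. Per the submitters' processing notes, the build was GRCh38 and the tools included MACS2 2.2.5, STAR 2.7.1, Picard, SAMtools, bedtools and ChIPseeker, with featureCounts, DESeq2 and edgeR. What each did, with which settings and on which pool of libraries, is not stated in these notes. Each summit of the deposited MACS2 list has the −log10 of its p-value or q-value, and which was used is unknown. The deposited MeTDiff list gives a p-value, the log10 of the FDR and a fold (the ratio of precipitate to input), as read from column order and values.

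Peaks were placed in RefSeq gene spans and start windows (GRCh38.p14) with Python 3.11.15, pandas 2.3.3 and numpy 2.4.6. Blocks were read as in BED files, and positions are 1-based. Strand came from the start windows for 42 members and from the peaks for 3 (HSF1, PDIA3 and CCT6A). Ends were windows of 500 bp around a peak's midpoint. Shares have 95% Wilson intervals. No test was made, since no value belongs to a group. Counting was tested on simulated lists. The members and gene lists were chosen with earlier results of these data known. All members were named, and other genes where they overlap or adjoin a member's peak or rank among the 3 highest of their list. Transcript models were not used here, so exons and UTRs were not assigned.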

Additional observations from a re-analysis of the deposited data

How the results depend on the processing

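Of 35 alternatives, 27 left the value within the set limits (1.5 times for counts, the 95% interval for shares), and 8 moved it. With members that overlap no other gene, members with a MeTDiff peak numbered 15 (36 over all members), peaks 29 (79), members with a summit 10 (27) and summits 17 (47). These counts are out of fewer genes, so they fall by construction, and they were not compared as shares. The share of summits in MeTDiff blocks, 23.4%, was 44.7% with gaps between blocks included, 55.3% within 50 bp of a block and 70.2% with blocks moved 100 bp towards the 5′ end, the last chosen after seeing the data. The share of peaks at the 3′ end, 11.4%, was 5.06% with a window of 250 bp. Median fold stayed between 4.41 and 4.72 and median score between 23.6 and 26.8. No paired analysis was possible because the lists carry no replicate, and leaving out a replicate was not possible for the same reason. Depth is unknown, so a member without a peak is one in which none was listed. Expression, mapping to paralogs and overlap with neighbours limit each assignment.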

Other observations

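Of 83 further chaperone and folding genes, 80 were in the gene table. A MeTDiff peak overlapped 48 of them (60.0%) and a summit lay in 30 (37.5%), and the 45 chaperone genes described above had 86.7% and 60.0%. The largest folds were 23.1 in FKBP8, a membrane-bound prolyl isomerase, 20.5 in STUB1, a ubiquitin ligase that binds HSP70, and 19.4 in NUDC, a co-chaperone of HSP90. The highest scores were 59.2 in PPIB, the prolyl isomerase of the ER, 55.3 in FKBP8 and 49.8 in NUDC. These scores are for summits inside a span, while the summit of DNAJB11, the highest of the whole list, lay outside its span.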
